A study of Mus musculus with 16 samples.

Results

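The mouse has 39 protein-coding Hox genes, and all 39 were found among the 56748 genes of the deposited count table by their symbols, Hoxa, Hoxb, Hoxc or Hoxd followed by a paralogue number from 1 to 13. Cluster A holds 11 of them, cluster B 10, and clusters C and D 9 each. They were measured by RNA-seq in the longitudinal muscle with its myenteric plexus (LMMP), dissected from the proximal and distal colon of Ednrb -/- mice and WT (Ednrb +/+) littermates. Ednrb encodes the endothelin receptor B, and mice without it are a model of Hirschsprung disease (HSCR), in which the distal colon lacks enteric ganglia and the proximal colon is ganglionic. All mice were on a hybrid C57BL6/J-129Sv background and 2 to 4 weeks old, per the study's methods. The groups were WT proximal, WT distal, HSCR proximal and HSCR distal, with 4 libraries each. The titles of the distal libraries name the distal colon, whereas their tissue entries name the proximal colon, and the titles were followed. Per the study's methods, visible distention of the colon set the proximal segment in Ednrb -/- mice, and staining for a neuronal marker checked it. WT littermates gave equivalent proximal segments. The position of each cut along the colon is not given, so it cannot be compared between the genotypes. The sources used here also do not say which mouse gave which libraries, or whether a mouse gave more than 1. The p-values below therefore measure the spread between libraries.

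Hox proteins are homeodomain transcription factors that give cells a position along the body axis. Within each cluster the genes lie in the order of their paralogue numbers, and low numbers are expressed further toward the head and high numbers further toward the tail, a rule called collinearity. In the gut this order is kept in the mesenchyme that forms muscle and connective tissue, with paralogue 13 genes of clusters A and D marking the hindgut end, while Hoxb5 and its neighbors are also expressed in enteric neural crest cells. Hox proteins bind DNA together with TALE homeodomain cofactors of the PBX and MEIS families. CDX proteins activate Hox genes in the embryo, and Polycomb and Trithorax complexes keep them silent or active afterwards.

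The sequences just upstream of 3 members are printed here, because Hoxd13 had the highest level in WT distal colon, Hoxa5 had the highest level in WT proximal colon and stood low in both HSCR groups, and Hoxb8 had the smallest p of the HSCR segment comparison. They come from a RefSeq table (GRCm38.p6), are 250 bases long and are placed on GRCm39 by exact match. Windows were found for 22 of the 39 members, 24 windows in all. The Hoxd13 window lies on the plus strand at chr2:74498319-74498568, ends 85 bases before the deposited gene start and is 74.4% G or C. The Hoxa5 window lies on the minus strand at chr6:52181568-52181817 and ends where the deposited gene begins. The Hoxb8 window lies on the plus strand at chr11:96172481-96172730 and also ends where the deposited gene begins. Capitals mark, on either strand, the CDX motif TTTATG and the PBX-HOX motif TGATNNAT, and in Hoxa5 the run TTGCCATAATGG, and the Hoxd13 window holds none of the 3.
Hoxd13: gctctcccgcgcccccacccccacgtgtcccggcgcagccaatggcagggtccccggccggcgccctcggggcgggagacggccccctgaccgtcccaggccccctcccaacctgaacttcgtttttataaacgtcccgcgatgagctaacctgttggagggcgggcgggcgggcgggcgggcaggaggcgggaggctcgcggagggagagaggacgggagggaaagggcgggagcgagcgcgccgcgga
Hoxa5: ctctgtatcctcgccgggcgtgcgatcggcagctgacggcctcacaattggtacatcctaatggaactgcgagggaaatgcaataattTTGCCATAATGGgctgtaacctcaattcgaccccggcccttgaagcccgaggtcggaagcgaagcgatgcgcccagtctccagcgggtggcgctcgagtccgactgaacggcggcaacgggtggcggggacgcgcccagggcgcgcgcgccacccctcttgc
Hoxb8: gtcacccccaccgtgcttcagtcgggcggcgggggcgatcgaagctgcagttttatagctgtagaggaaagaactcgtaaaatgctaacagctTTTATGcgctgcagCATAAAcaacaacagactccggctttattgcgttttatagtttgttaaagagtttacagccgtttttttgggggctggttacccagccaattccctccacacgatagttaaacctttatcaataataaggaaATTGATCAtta

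Hoxb8 carried TTTATG at 2 places that do not overlap, and TGATNNAT at 1. TTTATG was present in 5 of the 24 Hox windows (20.8%) and in 10.8% of all 32851 windows of that length. TGATNNAT was present in 4 of 24 (16.7%) and in 7.7% of all, and the MEIS motif TGACAG in 2 of 24 (8.3%) and in 15.9% of all. TTGCCATAATGG was the longest run that the windows of Hoxa5 and Hoxc4 share, looked for after both had been read, and it occurred in those 2 windows and in 0 others. The Hoxc4 window is not printed because it lies within exons of that gene's longer transcripts. A match describes the letters of these windows and was not tested as a binding site.

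The libraries held 21384372 to 45831881 counted reads, of which mitochondrial genes took 4.32% to 49.8%. Their share was 7.31% to 49.8% in WT proximal and 4.32% to 23.7% in WT distal libraries. In HSCR proximal libraries it was 5.56% to 20.1%, and in HSCR distal libraries 5.93% to 11.3%. Levels are given as CPM, the counts relative to the library total scaled by TMM factors, and 3 counts, taken as the floor of detection, equaled 0.0551 to 0.226 CPM. The smooth muscle list (7 genes), which defines the dissected layer, summed to 23558 to 92872 CPM in 15 libraries and to 4447 CPM in HSCR proximal library 2, where the epithelial list (9 genes) summed to 12653 CPM against 15.3 to 4286 CPM elsewhere. Ednrb was 33.9 to 67.7 CPM in WT proximal, 7.84 to 36.2 CPM in HSCR proximal and 12.2 to 40.2 CPM in WT distal libraries. In HSCR distal libraries it was 97.0, 5.54, 5.82 and 9.56 CPM, and the library labelled HSCR distal 1, the highest of all 16, goes against its genotype label on this gene. HSCR proximal 3 and 4, at 36.2 and 35.8 CPM, also lay above WT proximal 2 at 33.9 CPM. The Ednrb level therefore did not separate the genotypes in the proximal colon either. A count over the whole gene does not show whether reads came from the disrupted part.

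Several HSCR libraries stood apart on the Hox genes that separated the WT segments. The log2 ratio of Hoxd13 to Hoxd9 was between -5.49 and 0.90 in WT proximal and between 4.15 and 5.01 in WT distal libraries. These genes had the smallest edgeR p-values of all members between the WT segments, with opposite signs. The separation of the WT ranges on this ratio is therefore not a result. It was 4.71 in the library labelled HSCR proximal 1, and -2.80, -6.35 and -5.48 in the other HSCR proximal libraries. In the libraries labelled HSCR distal 1 to 4 it was -7.03, 4.20, 5.57 and -2.22. A segment score from 50 genes chosen by their difference between the WT segments, 25 on each side and with Hox genes left out, was -3.97 to -2.88 in WT proximal and 1.12 to 2.52 in WT distal libraries. The choice of its genes in these same WT libraries separates the WT segments on that score and draws their ranges apart. Libraries that took no part in the choice tend to fall between these WT ranges, so a place between them is not a result. HSCR proximal libraries 1 to 4 stood at 0.71, -0.98, -2.47 and -2.69 on it, all above the WT proximal range, and HSCR distal libraries 1 to 4 at -2.57, 2.39, 2.71 and -0.83, of which library 3 lay above and libraries 1 and 4 below the WT distal range. On the Hoxd13 to Hoxd9 ratio HSCR proximal 1 and HSCR distal 1 and 4 lay beyond the WT range of their labelled segment on the side of the other segment, and HSCR proximal 3 and HSCR distal 3 lay beyond it on the far side. All libraries kept their labels. Values without HSCR proximal 1 and HSCR distal 1 and 4, the 3 chosen after seeing this ratio, are given beside results that they move. The enteric neuron list (12 genes), as a mean log2 CPM, was 5.38 in HSCR distal 1 and 1.39, 0.64 and -1.05 in the other HSCR distal libraries, 1 of 12 genes at most being at 0.

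Hox levels ranged from no count at all to 215 CPM. Of the 39 members, 25 had counts in all 16 libraries, 35 were high enough to be tested in at least 1 comparison, and Hoxc13 had no count anywhere. Hoxb1, Hoxd1 and Hoxc12 had counts in 2 libraries each, at most 0.229, 0.767 and 0.801 CPM. Compared per kb of gene length and averaged over the 16 libraries, Hoxa5 led with 31.1 CPM per kb, followed by Hoxd13 (28.8), Hoxa10 (19.1), Hoxd10 (15.5), Hoxb5 (13.8), Hoxd9 (12.9), Hoxa11 (12.4), Hoxd8 (11.7), Hoxb13 (10.6) and Hoxa13 (10.4). The order differed between the groups. Hoxa5 ranked 1 in WT proximal (81.1 CPM per kb) and 2 in WT distal (32.4), but 10 in HSCR proximal (7.84) and 16 in HSCR distal (3.11). Hoxd13 ranked 1 in WT distal (61.9) and HSCR distal (34.2) and 12 in WT proximal (6.02). Hoxa10 ranked 2 or 3 in every group, from 14.9 to 22.5 CPM per kb, and its CPM overlapped between the groups in all 4 comparisons.

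**Figure D1:**
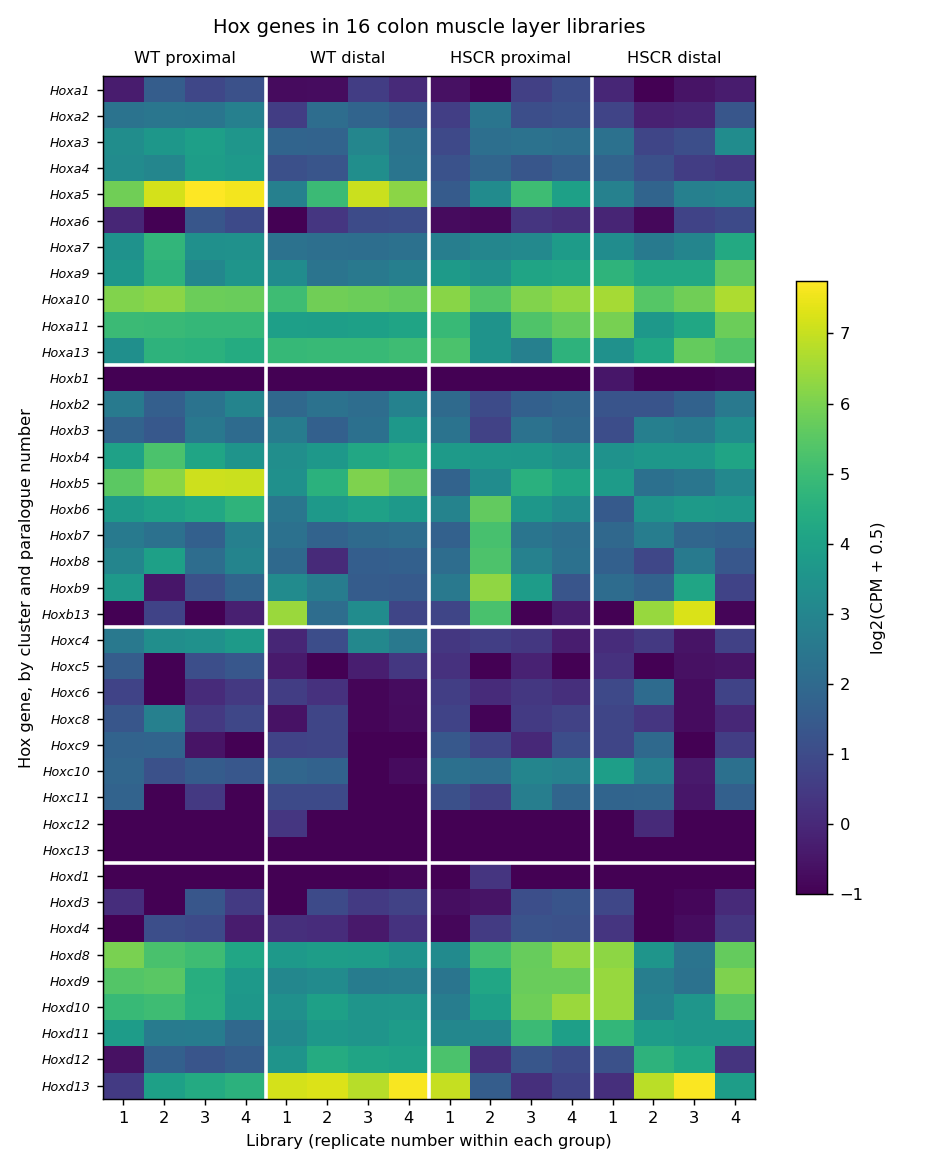
Level of the 39 Hox genes, by cluster and paralogue number from top to bottom, in each of the 16 libraries, as log2(CPM + 0.5) in color. Hoxd13 is high in all 4 WT distal libraries, in HSCR proximal 1 and in HSCR distal 2 and 3, and Hoxc13 is at 0 in all 16.

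The clusters contributed unequally, and the order of their means differed between the groups. Cluster A summed to 142 ± 40.0 CPM per kb in WT proximal (SD, n = 4), 75.5 ± 35.3 in WT distal, 60.3 ± 17.7 in HSCR proximal and 66.0 ± 26.1 in HSCR distal libraries. Cluster D summed to 50.0 ± 15.1 in WT proximal, 86.0 ± 15.5 in WT distal, 74.6 ± 30.8 in HSCR proximal and 94.6 ± 22.5 in HSCR distal libraries. In WT proximal libraries A took 42.6% to 58.8% of the summed level and D 11.1% to 31.5%, without overlap, whereas in the 3 other groups the mean of D exceeded that of A. Cluster B summed to means between 44.4 and 62.3 CPM per kb, with an SD of 48.6 in HSCR proximal, where library 2 alone drew 62.4% of its Hox level from cluster B. Cluster C was the lowest in every group, at 3.56 to 7.79 CPM per kb, and took at most 5.26% of any library's Hox level.

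**Figure D2:**
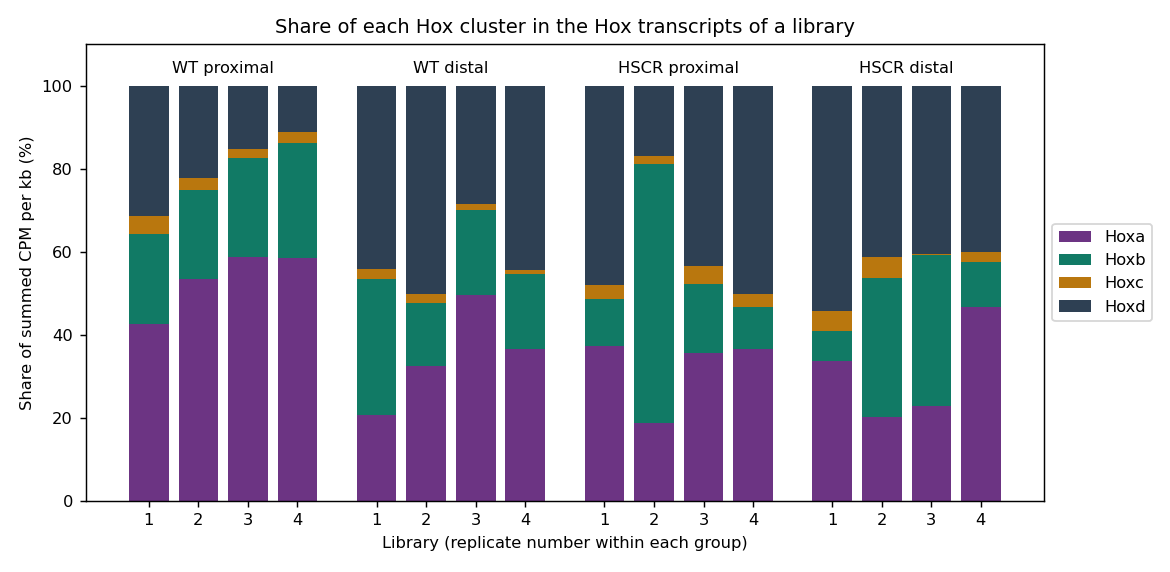
Share of each Hox cluster in the summed Hox level (CPM per kb, in percent) of each library. Cluster A is the largest part of all 4 WT proximal libraries, cluster B is the largest part of HSCR proximal 2 (62.4%), and cluster C never exceeds 5.26%.

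Summed by paralogue number, the level in CPM per kb (SD, n = 4) followed 3 patterns over the groups. Paralogues 4 and 5 were highest in WT proximal and low in both HSCR groups. Paralogue 4 gave 18.8 ± 4.37 in WT proximal, 10.5 ± 5.36 in WT distal, 6.76 ± 0.52 in HSCR proximal and 6.38 ± 0.99 in HSCR distal libraries, and paralogue 5 gave 116 ± 52.4, 45.8 ± 38.4, 12.6 ± 9.97 and 5.94 ± 2.30 in the same order. Paralogues 8 to 11 were lowest in WT distal libraries and widely spread in HSCR libraries. Paralogue 9, for example, gave 19.1 ± 9.70 in WT proximal, 6.62 ± 2.19 in WT distal, 28.0 ± 14.4 in HSCR proximal and 26.7 ± 19.0 in HSCR distal libraries, and paralogue 10 gave 33.4 ± 7.78, 22.4 ± 4.34, 45.2 ± 24.4 and 45.9 ± 29.3. Paralogues 12 and 13 had their highest means in WT distal libraries, with 6.49 ± 1.24 and 85.8 ± 20.9, against 0.73 ± 0.46 and 14.4 ± 6.65 in WT proximal libraries. In HSCR libraries paralogue 13 had an SD above its mean, 25.7 ± 28.6 in proximal and 73.2 ± 76.9 in distal libraries. Paralogues 1, 2 and 3 stayed at or below a mean of 4.37 in every group, and paralogues 6 and 7 lay between 3.84 and 10.9.

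Along the WT colon Hoxd12 and the paralogue 13 genes of clusters A, B and D stood higher in the distal segment, and most of the rest stood lower. Hoxd13, which with Hoxa13 patterns the hindgut and the anorectal end, was 0.904, 15.3, 19.7 and 23.9 CPM in WT proximal libraries 1 to 4 and 146, 157, 112 and 201 CPM in WT distal libraries 1 to 4. All WT distal libraries lay above all WT proximal ones, with a fitted log2 difference of 3.38 ± 0.75 (SE). Hoxd12, its neighbor in cluster D, was 0.151, 2.72, 1.99 and 2.50 CPM in WT proximal and 10.9, 20.5, 16.8 and 15.6 CPM in WT distal libraries, a log2 difference of 3.12 ± 0.70 without overlap. Hoxb13, the most posterior gene of cluster B, was 0, 1.18, 0 and 0.345 CPM in WT proximal and 85.6, 3.92, 9.09 and 1.27 CPM in WT distal libraries. It did not overlap either, but its log2 difference of 6.03 ± 1.75 ranged from 3.66 to 7.74 when each library was left out, and the library that gave 85.6 CPM had the highest epithelial sum (1938 CPM) of the WT distal libraries. The part of the epithelium in this value was not tested. Hoxa13 was 9.72, 24.8, 23.7 and 20.2 CPM in WT proximal and 28.6, 29.6, 29.5 and 32.6 CPM in WT distal libraries, without overlap and with a log2 difference of 0.64 ± 0.32.

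The middle genes of cluster D went the other way. Hoxd9 was 42.4, 45.0, 21.8 and 12.8 CPM in WT proximal and 7.74, 8.81, 5.83 and 6.24 CPM in WT distal libraries, a log2 difference of -2.06 ± 0.43. Hoxd8 was 62.7, 37.1, 32.1 and 17.8 CPM in WT proximal and 12.6, 14.2, 13.9 and 10.6 CPM in WT distal libraries, a log2 difference of -1.51 ± 0.37. Neither overlapped between the segments. Hoxd10 differed by -0.96 ± 0.35 with overlap, and Hoxd11, between the genes that stood lower and those that stood higher, by 0.71 ± 0.46. The sign of the fitted difference in cluster D thus changed once along the cluster, between Hoxd10 and Hoxd11.

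**Figure D3:**
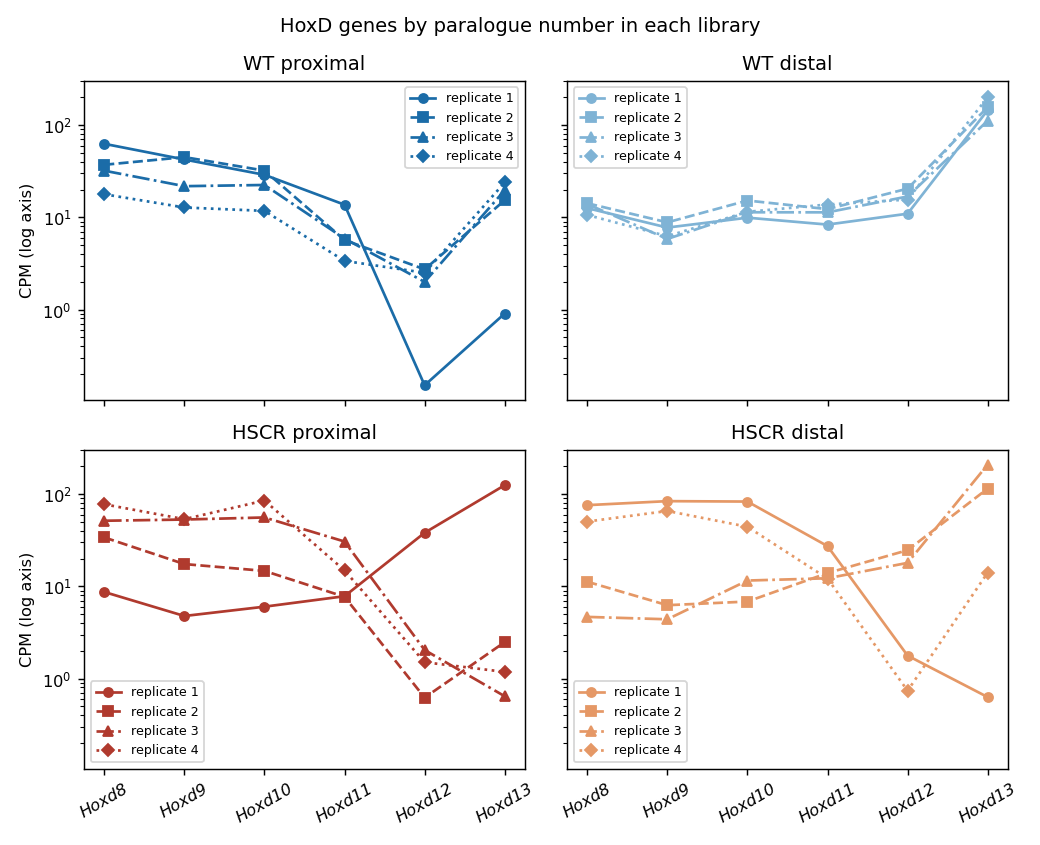
CPM (log axis) of Hoxd8 to Hoxd13 in the order of the cluster, 1 panel a group and 1 line a library. WT proximal lines are at their lowest at Hoxd12 and WT distal lines climb toward Hoxd13, the line of HSCR proximal 1 runs like those of WT distal, and the line of HSCR distal 1 drops to 0.629 CPM at Hoxd13.

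Members of cluster A other than Hoxa13 had fitted values below 0. Hoxa11, a posterior gene known from the limb and the reproductive tract, was 30.8, 29.6, 28.1 and 27.9 CPM in WT proximal and 14.7, 14.6, 15.2 and 16.7 CPM in WT distal libraries. The WT segments did not overlap and spread little within themselves, with a log2 difference of -0.90 ± 0.22. Hoxa7 was 10.4, 26.8, 9.96 and 10.2 CPM against 4.44, 4.12, 3.97 and 4.27 CPM, a log2 difference of -1.74 ± 0.43 without overlap. Hoxa2, Hoxa3 and Hoxb8 also did not overlap. Hoxa2, a hindbrain and branchial arch gene, was 4.59, 4.93, 4.79 and 6.56 CPM in WT proximal and 1.00, 3.86, 3.00 and 2.28 CPM in WT distal libraries (log2 difference -1.01 ± 0.54). Hoxa3 was 9.19, 11.9, 14.7 and 11.5 CPM against 3.00, 2.91, 7.63 and 4.57 CPM (-1.35 ± 0.43). Hoxb8 was 7.46, 15.1, 3.87 and 7.30 CPM against 3.47, 0.519, 2.57 and 2.74 CPM (-1.82 ± 0.66). In all 3 the distal libraries lay below the proximal ones, by little in Hoxb8, where WT proximal 3 and WT distal 1 nearly met. Hoxa11 overlaps an antisense gene, Hoxa11os, and Hoxa7 overlaps Hoxaas3. Because the protocol entry describes libraries with and without strand information, their reads cannot be told apart here.

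No member passed the test in the WT comparison. With p-values adjusted by Benjamini-Hochberg over all genes, edgeR's quasi-likelihood test called 0 of 35 members at an adjusted p under 0.05 and a log2 fold change beyond 1, against 0.0181% of all genes tested. Hoxd9 had the smallest p (unadjusted 0.000816, adjusted 0.788), and Hoxd13 and Hoxd12 had adjusted p-values of 0.835. At an unadjusted p under 0.05 there were 12 of 35 members (34.3%), against 5.23% of all genes tested. Of these, 3 stood higher in WT distal (all genes 3.17%) and 9 lower (all genes 2.06%). DESeq2 called 4 members, Hoxd13, Hoxd9, Hoxd12 and Hoxa7 (all genes 0.29%). The likelihood ratio test with 4 RUVr factors named in the study's methods called 14 (all genes 11.1%). Its factors were taken from the residuals of the same 8 libraries. This RUVr test was used only as an alternative, here and below, because it gave many calls on simulated data in earlier work. The groups did not overlap for 11 of 35 members (all genes 4.36%), 4 higher in WT distal (2.46%) and 7 lower (1.9%). The fitted difference was above 0 for 7 of 35 members, against 51.7% of all genes, and the median was -0.64 over the members and 0.03 over all genes. The smallest p that an exact two-sided permutation test of 4 against 4 libraries can give is 0.0286. Groups without overlap always give this p, so for the 11 members it adds nothing to the absence of overlap.

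By paralogue number, 12 of 13 tested members numbered 1 to 5 and 11 of 12 numbered 6 to 9 had a fitted value below 0, against 5 of 10 numbered 10 to 13. The medians of the log2 differences were -1.24, -1.18 and 0.16. Across the 35 members, which share libraries and neighboring regions and are not independent replicates, the Spearman correlation between paralogue number and log2 difference was 0.34. The cell type lists moved between the WT segments too. The enteric glia list (7 genes) was 5.68 to 6.38 mean log2 CPM in WT proximal and 4.05 to 5.62 in WT distal libraries, and the fibroblast list (6 genes) 7.47 to 8.03 and 8.26 to 8.56, both without overlap. As summed CPM both lists overlapped, the glia list at 384 to 845 and 155 to 494 CPM and the fibroblast list at 6498 to 8070 and 5415 to 8027 CPM. Their part in the Hox values was not tested, and in tissue RNA fewer cells of a type cannot be told apart from less RNA per cell.

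**Figure D4:**
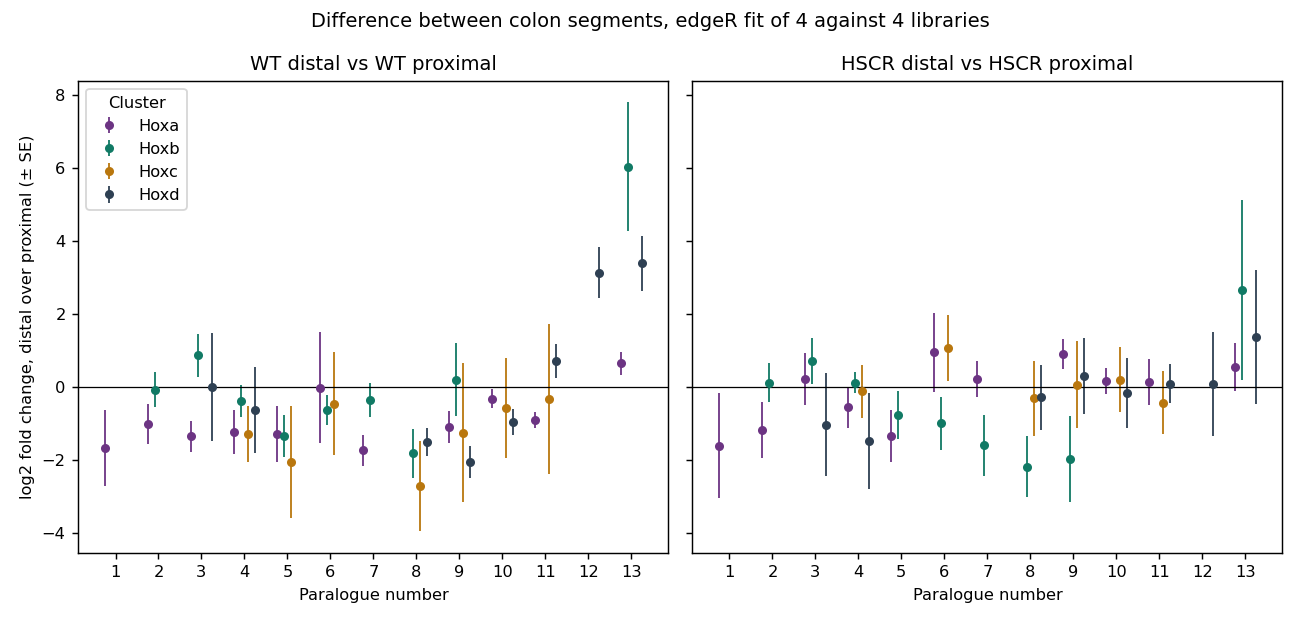
Log2 fold change, distal against proximal, with its SE for each tested member, ordered by paralogue number, in WT (35 members) and HSCR (34 members) mice. In WT mice the values above 0 include Hoxd12, Hoxd13, Hoxb13 and Hoxa13, and in HSCR mice the bar of Hoxd13 is longer (SE 1.84 against 0.75) and crosses 0.

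In HSCR mice the segments were not separated by any member, and the spread between libraries was wide for the genes that separated the WT segments. Hoxd13 was 125, 2.48, 0.643 and 1.18 CPM in HSCR proximal libraries 1 to 4 and 0.629, 115, 209.6 and 14.1 CPM in HSCR distal libraries 1 to 4. HSCR proximal 1 lay within the range of WT distal libraries and HSCR distal 1 below the lowest WT proximal library. The fitted log2 difference was 1.36 ± 1.84, and it was 6.30 without both libraries numbered 1 and 6.83 when HSCR distal 4 was left out as well. Hoxd12 ran in parallel, at 38.1, 0.621, 2.04 and 1.50 CPM in HSCR proximal and 1.77, 24.7, 18.0 and 0.737 CPM in HSCR distal libraries. Hoxd9 was the mirror image, at 4.77, 17.5, 53.1 and 53.5 CPM in HSCR proximal and 84.0, 6.25, 4.39 and 65.7 CPM in HSCR distal libraries. Its log2 difference was 0.30 ± 1.04 with all libraries, -0.73 without both libraries numbered 1 and -3.00 without HSCR distal 4 as well. The removal of the 3 libraries was chosen after seeing their Hox values, so it describes these libraries and is not a test.

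Called members numbered 0 of 34 in HSCR distal against HSCR proximal by edgeR's quasi-likelihood test (all genes 0.0%) and 0 by DESeq2 (all genes 0.0293%), while the RUVr test called 1, Hoxb8 (all genes 1.97%). At an unadjusted p under 0.05 there was 1 member, Hoxb8 (2.94% of members, 1.49% of all genes, with 0.708% higher and 0.778% lower), with a log2 difference of -2.18 ± 0.85 (edgeR p 0.0299) that was -0.81 without HSCR proximal 2. Hoxb8 was 3.87, 38.9, 6.67 and 4.26 CPM in HSCR proximal and 2.69, 1.34, 5.53 and 2.07 CPM in HSCR distal libraries. Its highest value came from HSCR proximal 2, as did those of Hoxb6 (49.8 CPM), Hoxb7 (36.8 CPM) and Hoxb9 (78.9 CPM). That library had the epithelial sum of 12653 CPM, and the ParaHox genes Cdx1 and Cdx2, which the epithelial list includes, were 364 and 435 CPM in it. The part of the epithelium in these values was not tested. No member was without overlap between the HSCR segments (all genes 1.32%, with 0.714% higher and 0.609% lower). The fitted value was above 0 for 18 of 34 members, against 47.1% of all genes, and the median log2 difference was 0.07 over the members and -0.04 over all genes. Without HSCR proximal 1 and HSCR distal 1 and 4, 10 of 34 fitted values were above 0, with a median of -0.91. Members at an edgeR unadjusted p under 0.05 were then 10 of 34 (all genes 3.42%). Hoxd13 and Hoxd12 stood higher and 8 lower, and Hoxb8 was not among them. Without only the libraries numbered 1 there were 5 of 34 (all genes 4.91%). These libraries were left out after their Hox values were seen, so the counts are not a test. With all libraries the Spearman correlation with paralogue number was 0.36 over 34 members. It differed in sign between the clusters, at 0.57 in A (11 members) and 0.81 in D (8 members) but -0.37 in B (9 members) and -0.31 in C (6 members).

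Hoxa13 was 38.2, 10.7, 6.52 and 24.5 CPM in HSCR proximal and 10.2, 18.2, 51.0 and 41.2 CPM in HSCR distal libraries, a log2 difference of 0.56 ± 0.66 with overlap, which was 1.36 without both libraries numbered 1 and 1.26 without HSCR distal 4 as well. Hoxb13 ranged from 0 to 151 CPM among the HSCR libraries. It was 1.27, 37.0, 0 and 0.286 CPM in HSCR proximal and 0, 83.1, 151 and 0.0461 CPM in HSCR distal libraries. The 4 highest libraries were WT distal 1, HSCR proximal 2 and HSCR distal 2 and 3, where the epithelial list summed to 1938, 12653, 1394 and 4286 CPM. In the other 12 libraries Hoxb13 was 0 to 9.09 CPM and the epithelial sum 15.3 to 2518 CPM. The part of the epithelium in these values was not tested.

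In the proximal colon, 5 anterior members stood lower in every HSCR library than in every WT library. Hoxa5, a gene of respiratory and gut mesenchyme, was 57.0, 145, 215 and 192 CPM in WT and 2.32, 8.73, 32.6 and 15.2 CPM in HSCR proximal libraries, with means of 152 ± 69.8 and 14.7 ± 13.03 CPM (SD, n = 4). Its log2 difference was -3.40 ± 0.78. Hoxb5, its paralogue, which is expressed in vagal neural crest derivatives and gut mesenchyme, was 46.0, 73.0, 134 and 133 CPM in WT and 2.95, 9.02, 22.9 and 17.0 CPM in HSCR, a log2 difference of -2.92 ± 0.64. In both genes HSCR proximal 3 was the highest and HSCR proximal 1 the lowest of the HSCR libraries, and all 4 lay under the lowest WT library.

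Hoxc4 had the smallest p of all members in this comparison. It was 5.35, 9.61, 10.3 and 12.998 CPM in WT and 0.824, 1.02, 0.826 and 0.322 CPM in HSCR proximal libraries, 71 to 434 counts against 9 to 45. Its log2 difference of -3.70 ± 0.55 stayed between -3.91 and -3.47 with any 1 library removed. Hoxa4 was 8.81, 7.55, 14.3 and 12.7 CPM in WT and 1.82, 3.14, 2.04 and 2.61 CPM in HSCR, a log2 difference of -2.21 ± 0.42. Hoxa3 was 9.19, 11.9, 14.7 and 11.5 CPM in WT and 1.42, 4.05, 4.37 and 4.04 CPM in HSCR, a log2 difference of -1.79 ± 0.45. Hoxa3, Hoxa4 and Hoxa5 overlap each other or the readthrough gene Gm28308 on the same strand in the annotation, so reads of their shared exons may have been left uncounted or split between them. Hoxc4 and Hoxb5 have no such overlap with another protein-coding gene. On the other strand, however, Hoxb5 overlaps Hoxb5os, and Hoxa3, Hoxa4 and Hoxa5 overlap Hoxaas3, whose reads may not be told apart from theirs.

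Hoxa9 and Hoxc10 did not follow. Hoxa9, an abdominal paralogue of cluster A, was 11.8, 24.6, 7.83 and 11.4 CPM in WT and 13.04, 10.2, 16.7 and 18.5 CPM in HSCR proximal libraries, a log2 difference of 0.05 ± 0.41. Hoxc10 was the member that stood higher without overlap, at 3.16, 1.73, 2.42 and 2.12 CPM in WT and 4.15, 3.87, 7.44 and 6.62 CPM in HSCR, a log2 difference of 1.21 ± 0.47. Hoxd13 had a log2 difference of 1.07, which was -3.41 without HSCR proximal 1. By paralogue number, 11 of 13 tested members numbered 1 to 5 had a fitted value below 0, as did 4 of 12 numbered 6 to 9 and 0 of 9 numbered 10 to 13, with medians of -1.20, 0.06 and 1.07. Without HSCR proximal 1 the members numbered 10 to 13 with a value below 0 were 4 of 9 (Hoxd13, Hoxd12, Hoxa13 and Hoxa10), their median was 0.21, and the counts for numbers 1 to 5 and 6 to 9 were again 11 of 13 and 4 of 12. The Spearman correlation between paralogue number and log2 difference was 0.62 over 34 members, and 0.40 without HSCR proximal 1, as a description of genes that are not independent.

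**Figure D5:**
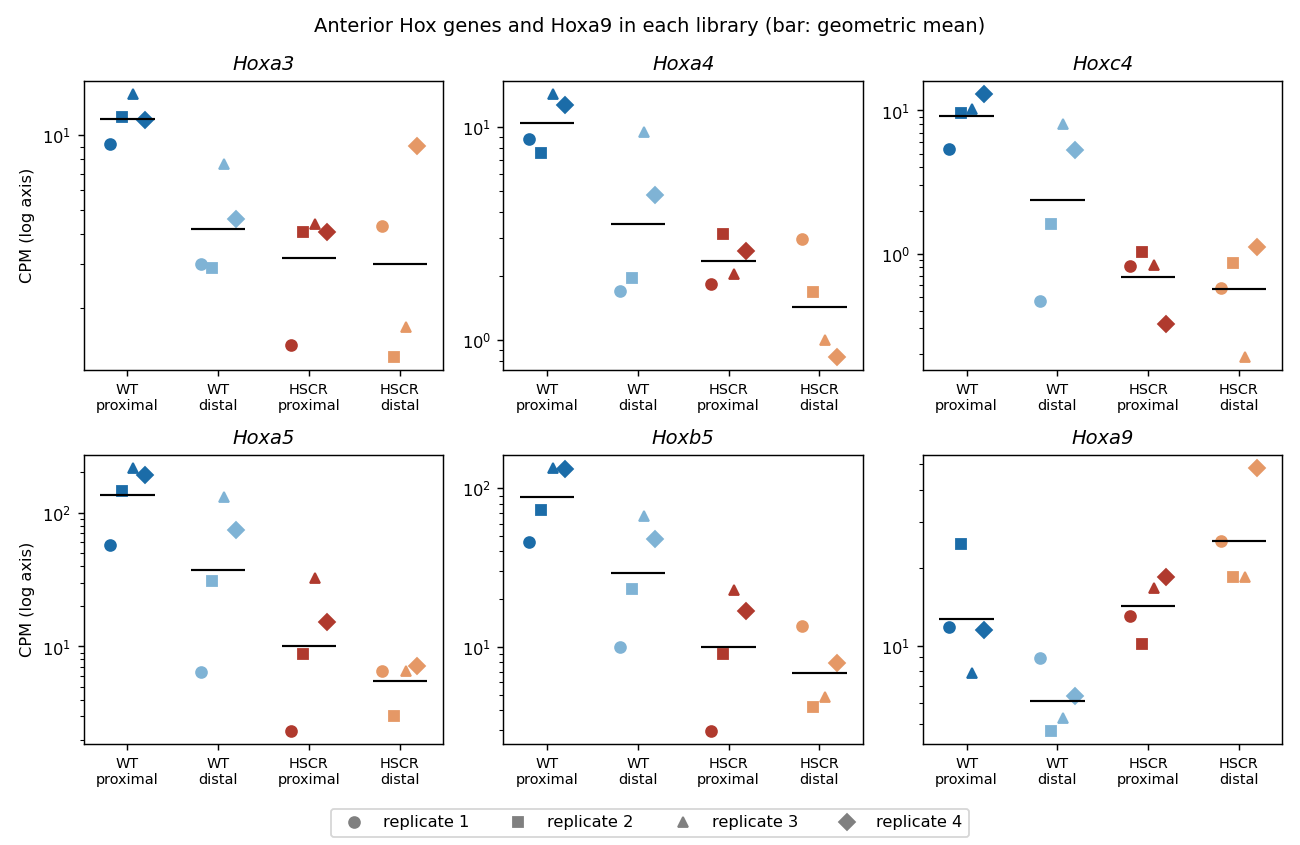
CPM (log axis) of Hoxa3, Hoxa4, Hoxc4, Hoxa5, Hoxb5 and Hoxa9 in the 4 groups, 1 point a library, with a bar at the geometric mean. The first 5 genes lie lower in all HSCR proximal than in all WT proximal libraries, and Hoxa9 lies higher in all HSCR distal (18.4 to 48.3 CPM) than in all WT distal libraries (4.67 to 8.98 CPM).

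The edgeR test called 0 of 34 members in HSCR against WT proximal colon (all genes 0.0%). The adjusted p of edgeR was 0.288 for Hoxc4, 0.523 for Hoxa4, 0.527 for Hoxb5, 0.593 for Hoxa5 and 0.629 for Hoxa3. At an unadjusted p under 0.05 there were 6 of 34 members (17.6%, all genes 6.62%), which were the same 6 that did not overlap (all genes 4.86%). Of these, 5 stood lower, 14.7% of members against 4.13% of all genes by the p and 2.83% by the absence of overlap. The other, Hoxc10, stood higher, as did 2.48% of all genes by the p and 2.03% by the absence of overlap. Without HSCR proximal 1, chosen after seeing its Hox values, 7 of 34 members had an edgeR unadjusted p under 0.05 (all genes 5.69%). They were the same 6 and Hoxd13, which then stood lower. With all libraries the fitted value was above 0 for 19 of 34 members, against 53.2% of all genes. DESeq2 called the same 5 lower members (all genes 1.09%), and the RUVr test called 13 (all genes 16.2%). The median log2 difference was 0.05 over the members and 0.04 over all genes. The libraries numbered 1 and 2 carry other kinds of library names than those numbered 3 and 4. Among the latter, WT proximal 3 and 4 and HSCR proximal 4 have names in CM, and HSCR proximal 3 and all distal ones names in LC. Within the libraries numbered 1 and 2, the difference of mean log2 CPM was -4.33 for Hoxa5, -3.49 for Hoxb5 and -2.95 for Hoxc4. Within the libraries numbered 3 and 4 it was -3.19, -2.76 and -4.44.

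Cell type lists moved with these 5 genes. The enteric glia list summed to 384 to 845 CPM in WT proximal and to 79.2 to 367 CPM in HSCR proximal libraries, without overlap and with 0 of 7 genes at 0. The neuron list summed to 639 to 3597 CPM and 84.1 to 2892 CPM, with at most 0 and 2 of 12 genes at 0. In HSCR proximal 3 and 4 its mean log2 CPM of 6.32 and 6.03 lay within the WT proximal range of 4.88 to 7.70, and in HSCR proximal 1 and 2 it lay below. The neuron list also varied with Hoxa5 among WT distal libraries, being 1.48, 4.14, 7.08 and 6.69 mean log2 CPM where Hoxa5 was 6.44, 30.8, 132 and 74.3 CPM. Both also ranked the libraries alike within WT proximal and within HSCR proximal colon. Among HSCR distal libraries they did not, the list being 5.38, 1.39, 0.64 and -1.05 where Hoxa5 was 6.60, 3.05, 6.58 and 7.14 CPM. The part of the neurons and of the glia in the genotype difference was not tested.

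In the distal colon the anterior members again stood lower in HSCR mice, though with overlap, and Hoxa9 and Hoxa7 stood higher. Hoxa5 was 6.44, 30.8, 132 and 74.3 CPM in WT and 6.60, 3.05, 6.58 and 7.14 CPM in HSCR distal libraries. WT distal 1 lay within the HSCR values, and the other WT libraries were above all of them, with a log2 difference of -3.43 ± 0.82. Hoxb5 was 9.94, 23.3, 66.8 and 48.2 CPM in WT and 13.5, 4.20, 4.85 and 7.95 CPM in HSCR, a log2 difference of -2.31 ± 0.64. Hoxc4 was 0.467, 1.61, 8.004 and 5.30 CPM in WT and 0.572, 0.855, 0.189 and 1.11 CPM in HSCR, a log2 difference of -2.53 ± 0.96. Without HSCR distal 1 and 4 the log2 differences were -3.73 for Hoxa5, -3.09 for Hoxb5 and -2.93 for Hoxc4. The enteric glia list summed to 155 to 494 CPM in WT distal and 57.3 to 272 CPM in HSCR distal libraries, with overlap.

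Hoxa9 was 8.98, 4.67, 5.28 and 6.40 CPM in WT and 25.4, 18.4, 18.4 and 48.3 CPM in HSCR distal libraries. The means were 6.33 ± 1.90 and 27.6 ± 14.2 CPM (SD, n = 4), the groups did not overlap, and the log2 difference was 2.11 ± 0.42, or 1.51 without HSCR distal 1 and 4. Hoxa7 was 4.44, 4.12, 3.97 and 4.27 CPM in WT and 9.03, 5.65, 7.33 and 19.6 CPM in HSCR, again without overlap, with a log2 difference of 1.29 ± 0.46, or 0.59 without HSCR distal 1 and 4. Hoxd9 and Hoxa11 also stood higher on average, by 2.48 ± 0.89 and 1.24 ± 0.51, but without HSCR distal 1 and 4 their values were -0.45 and -0.06. Hoxd13 differed by -0.89 with all libraries and by 0.04 without those 2.

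The edgeR test called 0 of 34 members in the distal comparison (all genes 0.0%), with an adjusted p of 1.0 for Hoxa9. At an unadjusted p under 0.05 there were 7 of 34 members (20.6%, all genes 2.64%), of which Hoxa9, Hoxa7, Hoxa11 and Hoxd9 stood higher (all genes 0.879%) and Hoxa5, Hoxb5 and Hoxc4 lower (all genes 1.76%). Without HSCR distal 1 and 4 there were 4 of 36 members (all genes 4.85%), Hoxa9 higher and Hoxa5, Hoxb5 and Hoxa2 lower. DESeq2 called Hoxa5 and Hoxa9 (all genes 0.129%), and the RUVr test called 12 (all genes 6.65%). The groups did not overlap for 2 members, both higher (all genes 0.78%), and for 0 lower (all genes 1.04%), 1.82% of all genes in both directions. The fitted value was above 0 for 17 of 34 members, against 53.9% of all genes. All 12 tested members numbered 1 to 5 had a fitted value below 0, with a median of -0.91, against 2 of 12 numbered 6 to 9 and 3 of 10 numbered 10 to 13.

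The difference of the segment change between genotypes was tested over all 16 libraries. Hoxa9 stood lower in WT distal than in WT proximal colon (-1.10 ± 0.43) and higher in HSCR distal than in HSCR proximal colon (0.90 ± 0.40), and the difference of these changes was 2.06 ± 0.58 (edgeR unadjusted p 0.00294). For Hoxa7, with -1.74 ± 0.43 in WT and 0.22 ± 0.49 in HSCR mice, it was 2.01 ± 0.64 (edgeR unadjusted p 0.0064). The HSCR segment change of Hoxa9 was 0.49 without HSCR distal 4 and 0.25 without HSCR proximal 1 and HSCR distal 1 and 4, and that of Hoxa7 -0.28 and -0.61. Without these 3 libraries the difference between genotypes was 1.37 for Hoxa9 and 1.14 for Hoxa7, and neither had an unadjusted p under 0.05. With all libraries these 2 of 35 members (5.71%, all genes 1.44%) had an unadjusted p under 0.05, both with a value above 0 (all genes 0.602% above and 0.843% below), and 0 were called by edgeR's quasi-likelihood test after adjustment (all genes 0.0%) or by DESeq2 (all genes 0.0322%). The fitted value was above 0 for 20 of 35 members, against 46.7% of all genes. Hoxa5 had a segment change of -1.30 in WT and -1.36 in HSCR mice, and the difference was -0.01 ± 1.03. For Hoxd13 the difference was -1.97 ± 2.10, 2.92 without both HSCR libraries numbered 1 and 3.44 without HSCR distal 4 as well. In the first of these reduced sets 3 of 35 members had an edgeR unadjusted p under 0.05, Hoxd13, Hoxa9 and Hoxa7 (all genes 1.96%). In the second there was 1 of 36, Hoxd13 (all genes 1.84%). The libraries left out were chosen by a ratio that holds Hoxd13, so these counts are not a test of it.

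Regulators of Hox genes and the related ParaHox genes were examined as lists. The 19 Polycomb and Trithorax genes gave 0 calls and 0 at an unadjusted p under 0.05 by edgeR's quasi-likelihood test, and 0 calls by DESeq2 and RUVr, with medians between -0.16 and 0.33. Of 6 ParaHox genes, Cdx1 and Cdx2 could be tested and 0 were called by edgeR or DESeq2, while RUVr called 1, 1, 2 and 0 in the WT segment, HSCR segment, proximal and distal comparisons. Cdx2 had an edgeR unadjusted p of 0.0192 in HSCR distal against proximal colon (log2 difference -4.16) and of 0.0318 in HSCR against WT distal colon (1.88), and both genes belong to the epithelial list.

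The clusters also hold noncoding genes, 19 in cluster A, 10 in B, 7 in C and 9 in D. Hoxa11os, antisense to Hoxa11, was 4.30 to 8.28 CPM in WT distal and 10.9 to 16.5 CPM in HSCR distal libraries, a log2 difference of 0.87 ± 0.36 without overlap (edgeR adjusted p 1.0). Hoxd3os1, antisense to Hoxd3, Hoxd4 and Hoxd8, was 7.46, 0.184, 4.06 and 2.94 CPM in WT proximal and 0.563 to 0.934 CPM in WT distal libraries, a log2 difference of -2.28 ± 0.95. Hoxb5os, antisense to Hoxb5 and Hoxb6, was 7.07 to 27.8 CPM in WT proximal and 19.8 to 53.3 CPM in WT distal libraries, a log2 difference of 1.07 ± 0.46 where Hoxb5 had -1.36 ± 0.57. Hotair, an antisense gene of cluster C, reached at most 1.41 CPM and Hottip, at the posterior end of cluster A, 6.52 CPM.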

How the data were processed

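Members and gene lists were chosen with earlier results of these data known. One list fixed for the pathway is not reported here. Per the study's methods and processing notes, the authors mapped polyA reads to mm39 with HISAT2 2.2.1, and featureCounts 2.0.6 assigned them to GENCODE genes. The authors deposited raw counts per gene and FPKM values, relative to gene length and library size. The authors' own fold changes and p-values stand in the same table and were not used. Reads that overlap more than 1 gene may have been dropped, and 12 members overlap another protein-coding gene on their strand and 14 a gene on the other strand, in GENCODE M39.

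From the counts, edgeR 4.0.16 (R 4.3.3) gave quasi-likelihood tests after filterByExpr and TMM, over the 8 libraries of each comparison and over all 16 libraries for the difference of segment changes, with Benjamini-Hochberg adjustment over all genes tested. CPM used TMM factors over 16 libraries, and log2 CPM a prior count of 0.5. Precision was set by the spread between libraries (biological coefficient of variation 0.700 to 0.794). The level order used CPM per kb of the deposited gene length. Values in every library were given for Hoxa5, Hoxa9, Hoxc4, the paralogue 13 genes and members without overlap between groups, the others by range. Hoxd9 to Hoxd12, Hoxb5 and Hoxb8 in further groups were added after their values were seen. DESeq2 1.42.0, RUVr with 4 factors, other scalings, no filter, the replicate and library series terms and leave-one-out were alternatives. The library series term set libraries 1 and 2 against 3 and 4 and did not separate names in CM from names in LC. Among WT libraries 3 and 4 these names cannot be told apart from the segment. For this report only the quasi-likelihood test between the WT segments was run on simulated counts, and the other tests were not. Tables were made in Python 3.11.15 (numpy 2.4.6, pandas 2.3.3, scipy 1.17.1), plots with matplotlib 3.10.9.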

Additional observations from a re-analysis of the deposited data

Results flagged for a closer look

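Within groups of 4 libraries, 64 groups over 16 members were examined for a library far from the other 3 (Dixon's criterion, which chance meets in about 1 of 20 groups), and 7 stood apart. Of these, 3 were in the library labelled HSCR proximal 1, where Hoxd13 was 125 CPM (others 0.643 to 2.48 CPM), Hoxd12 38.1 CPM (others 0.621 to 2.04 CPM) and Hoxa3 1.42 CPM (others 4.04 to 4.37 CPM). Hoxb13 was 85.6 CPM in WT distal 1 (others 1.27 to 9.09 CPM) and 37.0 CPM in HSCR proximal 2 (others 0 to 1.27 CPM). Hoxa7 was 26.8 CPM in WT proximal 2 (others 9.96 to 10.4 CPM). Hoxa5 was 3.05 CPM in HSCR distal 2 (others 6.58 to 7.14 CPM). No explanation of these values was tested.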

How the results depend on the processing

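The count of members called was 0 in all 5 tests and stayed 0 in 82 planned settings and in 4 added after seeing the data, leaving out each library included (0 to 0). It moved under DESeq2 to 4, 5 and 2 (WT segment, proximal and distal comparisons) and under the likelihood ratio test with 4 RUVr factors to 14, 1, 13 and 12 (WT segment, HSCR segment, proximal and distal comparisons), and the cause was not tested. Leaving out HSCR libraries could not alter the WT segment comparison, which does not hold them.

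Of 730 alternative values for 43 log2 fold changes, 23 in 8 of them had the other sign. Hoxd9 between the HSCR segments (0.30) was -0.0131 with RUVr, -0.40 with the replicate block, -0.73 without both libraries numbered 1 and -3.00 without HSCR distal 4 as well (chosen after seeing the data), and -0.37 to 0.67 when each library was left out. Hoxd13 in the proximal comparison (1.07) was -1.03 with RUVr, -2.86 with the replicate block, -0.77 with the library series as a term, and -3.41 (without HSCR proximal 1) to 1.51 when each library was left out. Hoxa9 in the proximal comparison (0.05) ranged from -0.14 to 0.47 when each library was left out. Without HSCR distal 1 and 4, chosen after seeing the data, the distal values were -0.45 for Hoxd9, -0.0626 for Hoxa11 and 0.0408 for Hoxd13. The difference of segment changes of Hoxd13 (-1.97) was 2.92 without both HSCR libraries numbered 1 and 3.44 without HSCR distal 4 as well (also chosen after seeing the data), and -2.96 to 2.53 when each library was left out. That of Hoxd9 (2.41) was -0.92 without those 3 libraries.

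Libraries of the same number were correlated in their deviations from the group means by 0.0959 to 0.417 (WT), 0.000134 to 0.358 (HSCR), -0.117 to 0.251 (proximal) and -0.214 to 0.424 (distal), so the numbers were not shown to pair them, and not every library correlated best with its own number. The replicate block gave 0 members called in each comparison. Members under 3 counts, such as Hoxc13, were not detectable at this depth.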
